A study of Mus musculus with 25 samples.

Results

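ASZ001 is a cell line of mouse basal cell carcinoma, described in the labels as resistant. Its response to vismodegib was measured by RNA sequencing in 3 libraries treated with vismodegib and 3 treated with the vehicle control. These are 6 of the 25 samples of the series, taken by their labels, and the comparison was fitted on these 6 libraries alone. The other samples are tumour RNA and exome libraries and 3 ASZ001 libraries treated with CCG-1423, an inhibitor of the MRTF coactivators of SRF, which are used here only side by side. All 6 vismodegib and vehicle libraries share the cell line and differ in the agent. The sources used here give neither the dose nor the treatment time, and do not say what the vehicle was. The growth note attached to the cell samples speaks of tumours raised in mice that carried p53 fl/fl, Ptch+/- and K14 Cre-ER together, and does not say whether the line came from such a mouse, or whether it is 1 clone. Nothing says that the 3 libraries of a group came from separate cultures, so the p-values measure the spread between these libraries, which may be technical.

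Hedgehog ligands bind the receptor Ptch1 and so release Smo, a membrane protein that then acts through the primary cilium. Active Smo lifts the hold of Sufu and Kif7 on the Gli transcription factors, which switch on genes such as Gli1 and Ptch1 themselves, so that Gli1 RNA is widely read as the output of the pathway. Basal cell carcinomas are skin tumours driven by this pathway, most often through loss of Ptch1 or activation of Smo. Vismodegib binds Smo and blocks it, and tumours can become resistant to it. The title of the series names the SRF and MRTF pair, which couples the state of the actin cytoskeleton to transcription, as the link under study in resistant tumours.

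Between 32192090 and 44017757 reads fell at genes in a vehicle library, and between 30455530 and 35561668 in a vismodegib library. Levels are given as normalized read counts, and changes as log2 fold changes (vismodegib minus vehicle, ± SE of the fit). Along the first principal component, with 38.2% of the variance, samples parted by treatment, which set the vehicle libraries, at -11.1 to -8.76, apart from the vismodegib libraries, at 8.60 to 12.2. The cells carried the basal keratinocyte RNA that the label implies: all 16 listed basal markers had reads, with a summed level of 1700149 to 1734394 in the vehicle and 1692445 to 1722361 in the vismodegib libraries. Of the markers of other cell types, those at 0 in all 6 libraries were Dpt, Lum and Thy1 of 10 for fibroblasts, Lyz2 and Tyrobp of 11 for leukocytes, Tie1 of 8 for endothelium, Mlana and Sox10 of 7 for melanocytes and Tnnt3 of 8 for muscle. Other listed markers had reads, and 3 of them passed the test described below. They were 1 of 4 tested fibroblast genes (25%) and 2 of 3 tested endothelial genes (66.7%), against 13.8% of all genes. Of 3 leukocyte, 3 melanocyte and 2 muscle genes tested, none passed. Pecam1, an adhesion molecule of endothelium, had 876, 899 and 870.3 normalized counts with vehicle and 697, 782 and 655 with vismodegib (-0.31 ± 0.06), Flt1, a receptor of vascular growth factors, changed by 0.16 ± 0.04 from 1670.1 ± 51.4 (SD, n = 3), and Dcn, the fibroblast proteoglycan decorin, by -0.52 ± 0.17 at a low level, a call lost with DESeq2, all 9 cell libraries and 4 of the 6 fits without 1 library. Summed levels of those lists ran, vehicle first, from 177 to 205 and from 169 to 185 for 10 fibroblast genes, from 560 to 599 and from 506 to 606 for 11 leukocyte genes, and from 2517 to 2614 and from 2441 to 2676 for 8 endothelial genes. They ran from 2040 to 2187 and from 1882 to 2029 for 7 melanocyte genes, and from 83.3 to 102 and from 82.8 to 111 for 8 muscle genes.

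Vismodegib changed many genes by a little and few by much. Of 12440 genes tested 1721 passed at an adjusted p of at most 0.05 by limma, which is 13.8%. Of the passing genes 1666 had no overlap between the groups' libraries. With 3 libraries per group a passing gene thus seldom overlaps, and a lack of overlap is no separate support for its change. The share without overlap over all genes tested is not given here. The vismodegib libraries were higher for 769 genes (6.18%) and lower for 952 (7.65%). The median size of a passing change was 0.16 on the log2 scale, or 1.12-fold, and 93.1% of the passing genes changed by less than 1.5-fold. Only 119 genes (0.957%) passed with a change of at least 1.5-fold, 38 higher and 81 lower, and 43 (0.346%) with at least 2-fold, 5 higher and 38 lower. DESeq2 on the recovered reads called 1079 genes, a fit with all 9 cell libraries 703, and the count without vehicle replicate 2 was 1096. When each library was scaled by its total reads in place of the deposited size factors, 5417 genes passed and 90.8% of them were higher, against 44.7% as deposited. Counts of changed genes in a gene list are set below against the 6.18% higher and 7.65% lower of all genes.

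**Figure D1:**
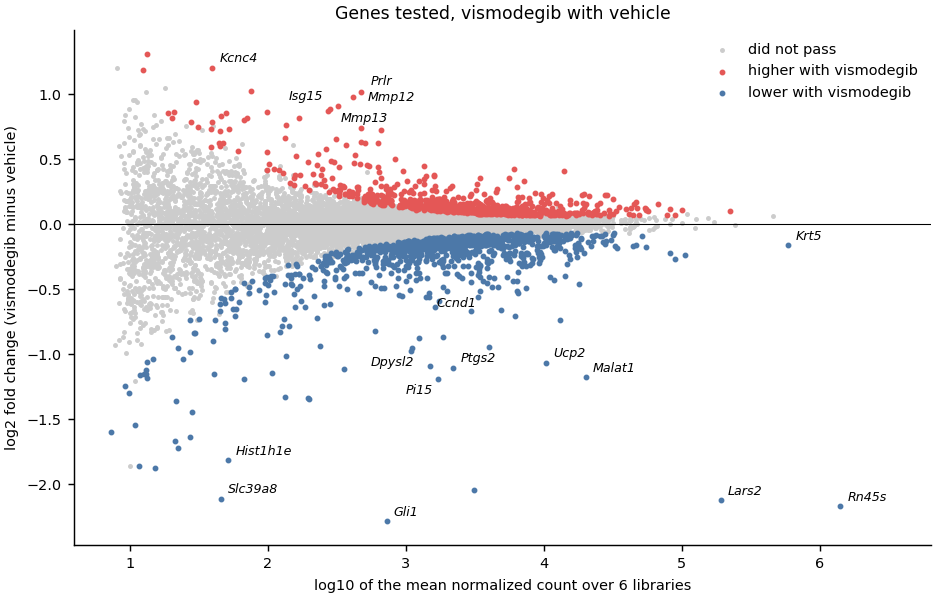
Each point is 1 of the 12440 genes tested, placed by the log10 of its mean normalized count over the 6 libraries and by its log2 fold change, with genes that passed in red (higher with vismodegib) or blue (lower). Most passing genes lie close to 0, while Gli1, Rn45s, Lars2 and Slc39a8 lie below -2.

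Gli1, the Hedgehog-induced activator, had the largest fall of all genes tested. Its normalized counts were 1216, 1304 and 1100.1 in the vehicle libraries and 229, 272 and 240.1 in the vismodegib libraries. The groups were far apart, and the vismodegib mean was 20.5% of the vehicle mean. The log2 fold change was -2.28 ± 0.07, with an adjusted p of 2.81e-15 by limma. Since the libraries are of bulk RNA, fewer cells with Gli1 RNA and less Gli1 RNA per cell cannot be told apart. Gli1 passed with every alternative setting that was run.

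The other Hedgehog targets moved far less. Ptch1, the receptor and another common readout of the pathway, had 323, 305 and 332 normalized counts with vehicle and 289.7, 278 and 268 with vismodegib. The Ptch1 libraries did not overlap, but the difference of -0.20 ± 0.07 did not pass (adjusted p of 0.0744, limma). Hhip, a ligand-binding inhibitor, and Mycn, a proto-oncogene of the Myc family, stayed at or below the 3 reads that a count of 0 allows, so that a response of these targets was not detectable at this depth.

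Ccnd1, the cyclin that drives entry into the cell cycle, fell from 1835, 1683 and 1693 to 1325, 1124 and 1168, with no overlap and a log2 fold change of -0.53 ± 0.05 (adjusted p of 2.19e-07, limma). Ccnd2, its relative and likewise a listed target, had means of 64031 ± 938 and 65494 ± 440 (SD, n = 3 each) and a difference of 0.03 ± 0.02 that did not pass. Bcl2, which blocks apoptosis, fell from 648, 668 and 667 to 587, 509.6 and 539, a change of -0.28 ± 0.06. Sox9, a transcription factor of the hair follicle and of basal cell carcinoma, changed by -0.26 ± 0.02, and Cdk6, a kinase partner of the D cyclins, by -0.22 ± 0.03. These 3 genes fell without overlap, each by less than 1.5-fold.

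Of 20 listed Hedgehog targets 14 could be tested, 9 of them fell (64.3%, against 7.65% of all genes) and none rose. The list does not part genes that Hedgehog signalling raises from genes that it lowers, so the count is not a measure of pathway output. The median log2 fold change of the 14 tested targets was -0.17, against 0.01 over all genes tested. Besides those named, Boc and Gas1, co-receptors that help Ptch1 bind ligand, changed by -0.20 and -0.07, Rab34, a small GTPase needed for the cilium, by -0.14 and Sfrp1, a secreted Wnt antagonist, by -0.14. These 4 lost their calls with all 9 cell libraries and in 4, 5, 3 and 2 of the 6 fits without 1 library, in the same order. With total-read scaling 5 of the 14 were lower and 1 was higher, and Gas1 turned to 0.01 without passing. The count was 4 with all 9 cell libraries and 5 without vehicle replicate 2, while edgeR gave 9 and DESeq2 8.

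**Figure D2:**
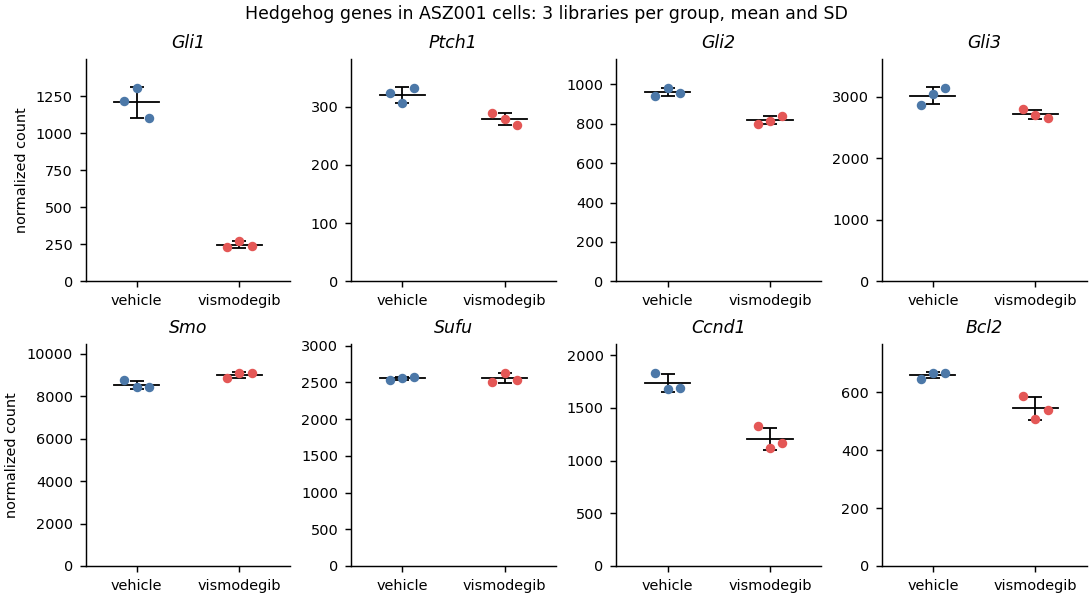
Normalized counts of 8 Hedgehog pathway genes in the 3 vehicle (blue) and 3 vismodegib (red) libraries, each y axis starting at 0, with bars for the mean and SD. Gli1 fell to 229 to 272 from 1100.1 to 1304, and the vismodegib mean of Ccnd1 was 69.4% of its vehicle mean. For the other genes the distance between groups is small beside the level, and Sufu is level.

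Upstream of the targets, Smo itself, the protein that vismodegib binds, had 8757, 8429 and 8428 normalized counts with vehicle and 8847, 9075 and 9113 with vismodegib. The groups did not overlap and the rise of 0.08 ± 0.02 passed narrowly (adjusted p of 0.03, limma), but not with edgeR, DESeq2, all 9 libraries, the replicate number as a block or 4 of the 6 fits without 1 library. Sufu, the cytoplasmic inhibitor of the Gli proteins, was level at 2557 ± 22.6 and 2558 ± 65.3 (SD, n = 3 each). Gli2, the main activator of the family, fell from 939, 981 and 959 to 799.6, 813 and 841, a change of -0.23 ± 0.04 without overlap. Gli3, which acts mostly as a repressor, fell by 0.15 ± 0.03 on the log2 scale, Kif7, the ciliary kinesin, by 0.19 ± 0.06 and Mtss1, an actin-binding protein induced by Hedgehog signalling in skin, by 0.22 ± 0.03. These 4 falls (16%, against 7.65% of all genes) and the rise of Smo (4%, against 6.18%) were the only changes among 25 tested receptors and transducers. Kif7 did not pass with DESeq2, total-read scaling, all 9 libraries or without vismodegib replicate 3, vehicle replicate 2 or vehicle replicate 3.

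Of 9 genes for Hedgehog ligands and their processing, only 3 had enough reads to test, and none passed with limma, edgeR or DESeq2 or had an unadjusted p under 0.05 by limma. Among 30 primary cilium genes, all tested, 2 fell and none rose, which is 6.67% lower against 7.65% of all genes. Tulp3, which carries receptors into the cilium and restrains the pathway, fell from 16364, 16384 and 16106 to 12058, 12518 and 12514, a change of -0.40 ± 0.02 without overlap. Rpgrip1l, a protein of the ciliary gate, changed by -0.16 ± 0.05 and did not pass with total-read scaling or all 9 libraries, nor without vismodegib replicate 3, vehicle replicate 2 or vehicle replicate 3. The median over the cilium list was -0.01. Total-read scaling gave 8 cilium genes higher and 1 lower, but 0 higher and 2 lower with the reads of Rn45s and Lars2 left out of the totals.

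Rn45s and Lars2 had the largest falls after Gli1 among genes that met the naming rule given below. Rn45s, the row of the precursor of ribosomal RNA, took 5.81%, 6.70% and 6.49% of the reads at genes in the vehicle libraries and 1.39%, 1.58% and 1.5% in the vismodegib libraries. In the same order the row of Lars2, the mitochondrial leucyl-tRNA synthetase, took 0.742%, 0.916% and 0.912% and then 0.197%, 0.217% and 0.209%. Their log2 fold changes were -2.17 ± 0.05 and -2.12 ± 0.06, nearly equal, with no overlap between groups, which the naming rule requires of them. Mir6236, a microRNA row, went from 4222, 5469 and 5339 to 1155, 1226 and 1232 (-2.05 ± 0.06). With vehicle the Lars2 row had a mean of 310767 normalized counts, above the 96288 of Actb. Whether the reads of the Lars2 and Mir6236 rows came from those genes was not tested, so their falls are not read as changes of the genes.

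Malat1, an abundant RNA that stays in the nucleus, fell from a mean of 27741 ± 2373 to 12322 ± 1509 (SD, n = 3 each), a change of -1.17 ± 0.06. Kcnq1ot1, an imprinted nuclear RNA transcribed antisense to Kcnq1, changed by -0.52 ± 0.12, and Neat1, the scaffold of paraspeckles, by -0.30 ± 0.08. The strandedness of the libraries is not given, so reads of Kcnq1ot1 and Kcnq1 could not be told apart. Neat1 overlapped between groups, with 708, 716 and 849 and then 714, 578 and 555, and did not pass with DESeq2, a robust variance, all 9 libraries or without vismodegib replicate 2, vismodegib replicate 3 or vehicle replicate 3. These 3 were the passing members among 8 tested nuclear and mitochondrially encoded RNAs (37.5% lower, against 7.65% of all genes).

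Hist1h1e, a linker histone, had 77.6, 85.1 and 78.1 normalized counts with vehicle and 15.7, 28.0 and 24.5 with vismodegib, a change of -1.81 ± 0.21 without overlap. Hist1h3d, a histone H3 gene, was low throughout, with 16.3, 19.2 and 18.1 with vehicle and 7.83, 8.70 and 6.13 with vismodegib. It thus reached the minimum value for testing in the vehicle libraries only. Its change was -1.15 ± 0.32, a call kept with no filter on low values but lost with DESeq2 and without vismodegib replicate 3. Hist1h1e and Hist1h3d were the 2 passing members among 11 tested replication-dependent histone genes (18.2% lower, against 7.65% of all genes). The median of the histone genes was -0.20. Messengers of these genes carry no poly(A) tail and the copies are near-identical, so how reads were divided among them is uncertain. The sources used here do not say how RNA was selected for the libraries, and the part of that selection in these falls was not tested.

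**Figure D3:**
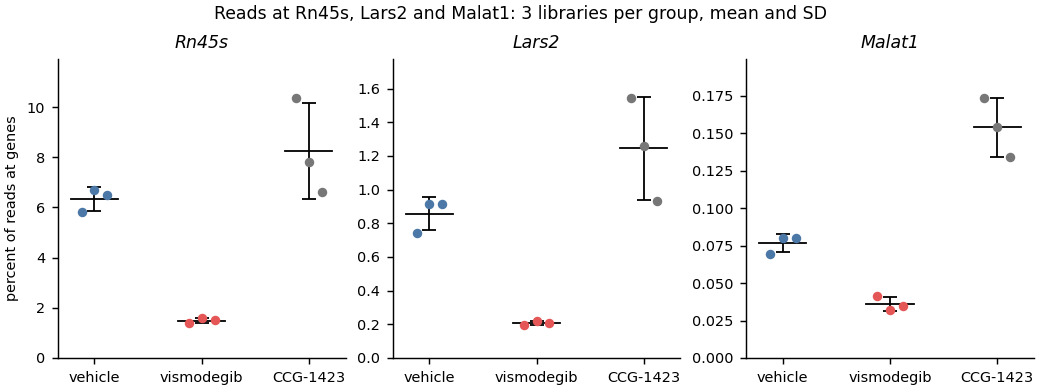
Share of reads at genes, in percent, taken by Rn45s, Lars2 and Malat1 in the 3 libraries of each treatment, with bars for the mean and SD and y axes from 0. The vismodegib libraries are the lowest in all 3 panels, and the CCG-1423 libraries lie level with the vehicle libraries or above them.

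Because Rn45s took fewer of the reads in the vismodegib libraries, it bears on any scaling by total reads. With the reads of Rn45s and Lars2 left out of the totals, an alternative chosen after the values were seen, 1744 genes passed, 772 higher and 972 lower, and 1712 of them were among the 1721 above. In this setting the Hedgehog target, SRF-MRTF cytoskeletal and YAP-TEAD lists had 9, 7 and 7 members lower, and 0, 3 and 2 higher. The ribosome biogenesis, aminoacyl-tRNA synthetase, integrated stress response and cholesterol lists described below had 9, 7, 4 and 4 higher, and 0, 0, 1 and 0 lower. Over all the settings run the log2 fold change of Gli1 lay between -2.35 and -2.20.

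Outside the pathway, several transporters and secreted proteins fell by more than 2-fold. Slc39a8, a zinc and manganese importer, went from 66.2, 91.5 and 66.8 to 14.5, 18.4 and 16.4, a change of -2.11 ± 0.21. Slc24a2, a sodium, calcium and potassium exchanger, went from 291, 285 and 275 to 108, 131 and 97.1 (-1.34 ± 0.10). Atp6v0a4, a subunit of the vacuolar proton pump, changed by -1.33 ± 0.10, and Slco4a1, an organic anion transporter, by -1.33 ± 0.14. None of these 4 genes overlapped between groups, which the naming rule given below requires of them.

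Pi15, a secreted peptidase inhibitor, had 2365, 2392 and 2367 with vehicle and 1090.4, 1146 and 895 with vismodegib (-1.19 ± 0.06, adjusted p of 1.09e-11, limma). Prss22, a serine protease of epithelia, changed by -1.19 ± 0.21 and Prdm8, a transcriptional repressor, by -1.15 ± 0.22. A further 3 genes with small p were chosen after their values were seen. Ucp2, a carrier of the inner mitochondrial membrane, fell from 14392, 14175 and 13693 to 6425, 7009 and 6790.3 (-1.06 ± 0.03). Dpysl2, which binds tubulin in growing neurites, fell from 2092, 2035 and 1989.7 to 968, 943 and 959 (-1.09 ± 0.04), and Chl1, a cell adhesion molecule, by 0.70 ± 0.02 on the log2 scale. The vehicle and vismodegib libraries of these 3 genes were far apart.

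Of 11 tested prostaglandin genes 4 fell (36.4%, against 7.65% of all genes) and 1 rose (9.09%, against 6.18%), with a median of -0.05. Ptgs2, the inducible cyclooxygenase that makes prostaglandin H2, had 2984, 3037 and 3029 normalized counts with vehicle and 1401, 1403 and 1403 with vismodegib. The 3 vismodegib libraries were almost identical and all lay below the vehicle libraries, with a log2 fold change of -1.10 ± 0.03 (adjusted p of 3.72e-16, limma). Pla2g4a, the phospholipase that frees arachidonic acid for this enzyme, fell from 2057, 2109 and 2080.2 to 1370, 1456 and 1320.3 (-0.59 ± 0.04). Ptges3, a prostaglandin E synthase that is also a cochaperone, changed by -0.17 ± 0.02, and Ptger3, a prostaglandin E2 receptor, by -0.15 ± 0.04. Slco2a1, the prostaglandin importer, was the 1 member that rose, by 0.14 ± 0.03, which did not pass with DESeq2, all 9 libraries or without vehicle replicate 2. Ptgs1, the constitutive cyclooxygenase, which the naming rule does not name, was not among the members that passed, and its values are not given here. Ptger3 did not pass with total-read scaling or with all 9 libraries.

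In the list of xenobiotic receptor targets 5 of 11 tested members fell (45.5%, against 7.65% of all genes), none rose, and the median was -0.04. Aldh3a1, an aldehyde dehydrogenase induced through the aryl hydrocarbon receptor, went from 149, 132 and 168 to 61.5, 71.6 and 67.4 (-1.14 ± 0.13), and Cyp2s1, a cytochrome P450 of epithelia, from 527, 567 and 518 to 393, 365 and 359.7 (-0.53 ± 0.06). Cyp1b1, a classic target of that receptor, changed by -0.23 ± 0.03, Cyp26b1, which breaks down retinoic acid, by -0.21 ± 0.04 and Ahr, the receptor itself, by -0.16 ± 0.03.

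In the insulin-like growth factor list 6 of 12 tested members fell (50%, against 7.65% of all genes) and 2 rose (16.7%, against 6.18%). Irs1, the adaptor that relays signals of the insulin and IGF receptors, fell from 2269.9, 2404 and 2531 to 1397, 1361 and 1203, a change of -0.86 ± 0.05 without overlap (adjusted p of 6.17e-11, limma). The binding proteins went in different directions. Igfbp7 changed by -0.52 ± 0.02 and Igfbp2 by -0.32 ± 0.02, whereas Igfbp3, the main carrier of IGF in serum, rose from 26589.9 ± 333 to 31029.8 ± 578 (SD, n = 3 each), a change of 0.22 ± 0.02.

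**Figure D4:**
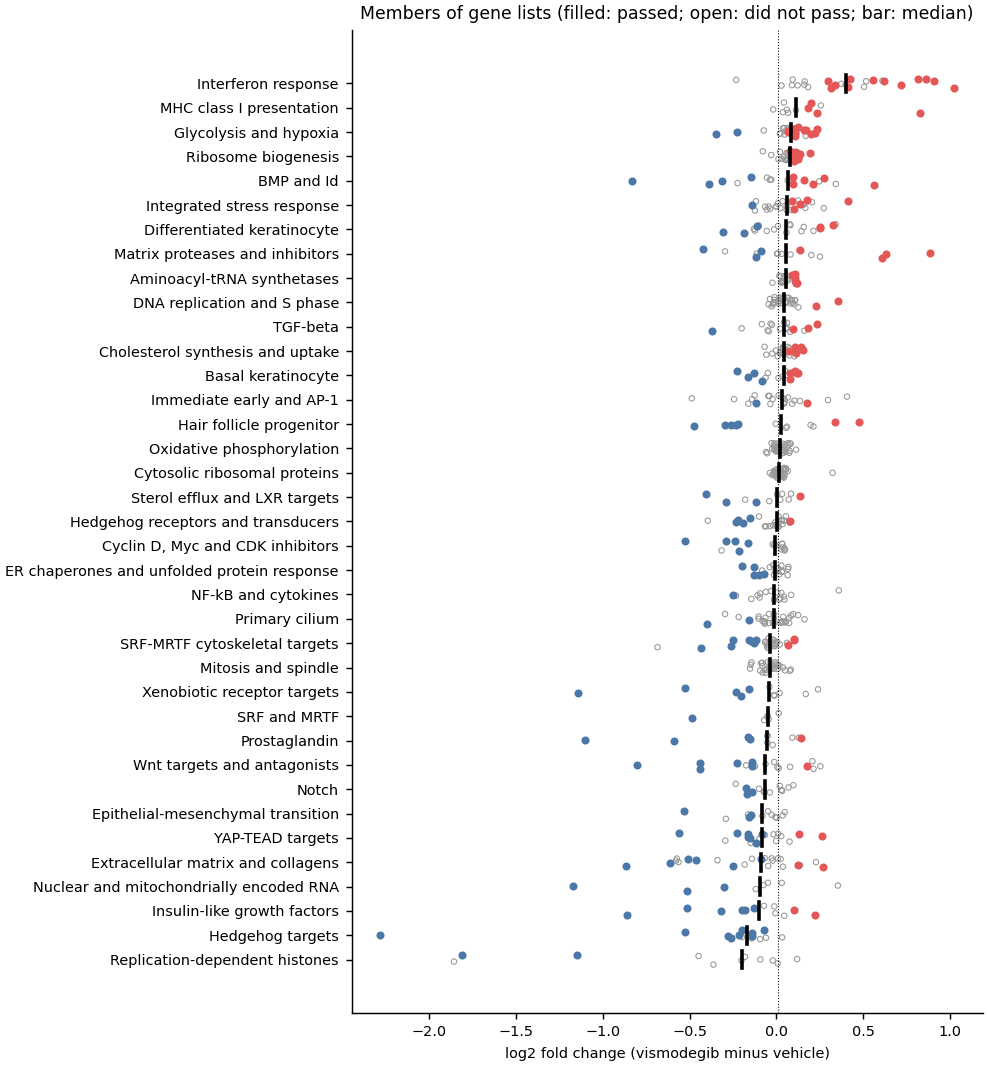
Each point is 1 tested member of a gene list, placed by its log2 fold change, in red or blue where it passed and open where it did not, with a black bar at the list's median and a dotted line at the median of all genes tested. The 37 lists drawn are those described in the text with at least 5 tested members. Among them the interferon list has the highest median (0.40), the histone and Hedgehog target lists the lowest (-0.20 and -0.17), and single members such as Gli1 and Ptgs2 lie far from the rest of their lists.

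The SRF and MRTF genes named in the title of the series changed little. Srf had 2633, 2640.4 and 2525 normalized counts with vehicle and 2533, 2395 and 2596 with vismodegib, and Mkl1, which encodes MRTF-A, had 3910, 3838 and 3827 and 3798, 3821 and 3603. The Srf libraries overlapped, the Mkl1 libraries lay close without overlap, and the differences of -0.05 ± 0.03 and -0.04 ± 0.03 did not pass and turned to 0.03 and 0.04 with total-read scaling, also without passing. Elk4, another partner of SRF, was the 1 of 6 tested members to change (16.7% lower, against 7.65% of all genes). It fell from 2139, 2162 and 2251 to 1628, 1625 and 1432 (-0.49 ± 0.04).

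Among 31 tested cytoskeletal targets of SRF and MRTF 7 fell (22.6%, against 7.65% of all genes) and 3 rose (9.68%, against 6.18%), with a median of -0.04. Actb, the cytoplasmic actin, fell from 96288 ± 2222 to 80181 ± 1160.3 (SD, n = 3 each), a change of -0.26 ± 0.02 without overlap. Filip1l, a filamin-interacting protein, changed by -0.44 ± 0.03, Tpm1, a tropomyosin, by -0.25 ± 0.02 and Wdr1, which disassembles actin filaments, by -0.12 ± 0.02. Csrp2, a muscle LIM protein, was among those that rose, by 0.10, and did not pass with DESeq2, all 9 libraries or 4 of the 6 fits without 1 library. Acta2, the smooth muscle actin, and Tagln were at or near the detection floor and were not tested. With total-read scaling the list had 4 members lower and 12 higher.

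Of 19 tested YAP and TEAD targets 7 fell (36.8%, against 7.65% of all genes) and 2 rose (10.5%, against 6.18%). Ctgf, a matricellular protein and the standard readout of YAP, fell from 1705, 1773 and 1768 to 1246, 1243 and 1071, a change of -0.56 ± 0.05 without overlap (adjusted p of 4.15e-08, limma). Cyr61, its relative and another standard readout, had 1106, 1047 and 1126 and 1123, 979 and 1007, with overlap, and -0.08 ± 0.05 did not pass. Nuak2, a kinase, and Gadd45b, a stress protein, rose by 0.26 and 0.13. The list's falls numbered 3 with total-read scaling, 4 with all 9 libraries and 4 without vismodegib replicate 3. Of 23 tested immediate early genes 1 rose (4.35%, against 6.18% of all genes) and 1 fell (4.35%, against 7.65%). Junb, an AP-1 subunit, rose by 0.17 and Klf6, a zinc finger factor, fell by 0.12. Fos (0.30 ± 0.20) and Egr1 (-0.16 ± 0.05), the best known of these early genes, did not pass.

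Genes of the interferon response rose. Of 25 tested members 12 were higher with vismodegib (48.0%, against 6.18% of all genes) and none was lower, with a median log2 fold change of 0.40. Interferons bind cell surface receptors, whose kinases activate a complex that holds Stat2 and Irf9. This complex binds interferon-stimulated response elements in the promoters of antiviral genes, a sequence with repeats of GAAA. Promoters of 20 of the tested members were found in the RefSeq table (GRCm38.p6, 250 bases before to 50 after each start). The spaced repeat GAAANNGAAA was searched on both strands with overlapping matches allowed. It was present in any promoter of 11 of these 20 genes and in 3.44% of 32851 promoters. Genes were counted over all their promoters and the background by promoter, so these shares are unlike measures. The repeat stood in 4 of 10 genes that rose and in 7 of 10 that did not pass, so the share was no higher among those that rose. The windows of Isg15, Oas1a and Bst2, which rose and whose matches lie wholly before the start, show how the repeats follow each other. Each is read on the gene's own strand, which is the minus strand for all 3, and capitals mark the matches, with 20 bases kept on either side but none past the gene's start, which leaves 4 after the last match of Oas1a.
Isg15, chr4:156200855-156200916: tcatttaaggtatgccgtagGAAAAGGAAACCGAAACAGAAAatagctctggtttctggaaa
Oas1a, chr5:120907526-120907565: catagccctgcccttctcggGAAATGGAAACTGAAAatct
Bst2, chr8:71537567-71537622: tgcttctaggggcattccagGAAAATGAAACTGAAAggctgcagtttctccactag

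Isg15, a ubiquitin-like protein conjugated in antiviral defence, had 247, 267 and 155 normalized counts with vehicle and 521, 311 and 420 with vismodegib. The groups did not overlap, but vehicle replicate 3 was low and vismodegib replicate 2 lay close to the vehicle libraries. The log2 fold change was 0.91 ± 0.16 (adjusted p of 0.00055, limma). Bst2, which tethers budding viruses, had 435, 391 and 359.9 and 693, 563 and 573, a change of 0.62 ± 0.08 with a wider gap. Oas1a, a sensor of double-stranded RNA with near-identical copies, so that its reads are uncertain, had 71.9, 63.9 and 69.0 and 187, 106 and 98.1 (0.86 ± 0.18). Vismodegib replicate 1 was the highest library for both of them.

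Ifi44, an interferon-induced cytoplasmic protein, had the largest rise of the list, from 60.4, 66.0 and 24.9 to 144, 72.5 and 82.8 (1.02 ± 0.28), with vehicle replicate 3 again the lowest. Ddx58, the RNA sensor RIG-I, rose by 0.31 ± 0.05. Irf7, Usp18, Oasl2, Xaf1, Irf9 and Ifi35 also rose, by 0.56, 0.72, 0.82, 0.41, 0.34 and 0.29. Among these 6, the groups overlapped for Irf7 and for Oasl2. Irf7 lost its call in 4 of the 6 fits without 1 library, and Oasl2 and Ifi35 theirs without vismodegib replicate 1 or vehicle replicate 3.

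**Figure D5:**
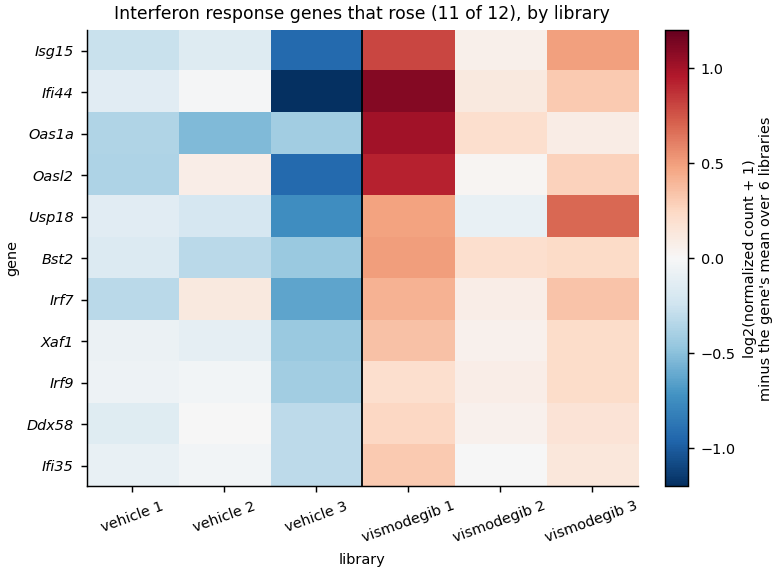
Interferon response genes that rose, 11 of the 12, as log2(normalized count + 1) minus the gene's mean over the 6 libraries, with libraries in columns and the vehicle libraries left of the line. Vehicle replicate 3 is the lowest library for all but Oas1a and vismodegib replicate 1 the highest for all but Usp18 and Irf9, while for Irf7 and Oasl2 vehicle replicate 2 lies above vismodegib replicate 2.

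The interferon count differed between settings. It was 12 with edgeR but 3 with DESeq2, 3 with a robust variance, and 1 with all 9 cell libraries, and it ranged from 8 to 14 when 1 library was left out. Isg15 and Ddx58 did not pass with DESeq2, a robust variance or all 9 libraries, Ifi44 also not without vismodegib replicate 1 or vehicle replicate 3, and Bst2 passed in every setting run. Among 11 tested genes of class I antigen presentation 4 rose (36.4%, against 6.18% of all genes) and none fell. Nlrc5, the transactivator of these genes, rose from 31.9, 40.4 and 26.0 to 73.8, 54.1 and 49.0 (0.83 ± 0.21). Psmb10, an immunoproteasome subunit, changed by 0.24 ± 0.06, Tap1, the peptide transporter, by 0.20 ± 0.06 and H2-K1, a class I heavy chain with close relatives whose reads are uncertain, by 0.18 ± 0.06. DESeq2 called 1 of these genes and all 9 libraries none, and the count was 1 without vismodegib replicate 1 or replicate 3 and 2 without vehicle replicate 2 or replicate 3. Of 17 tested NF-kB and cytokine genes Il1rn, the interleukin 1 receptor antagonist, alone passed and fell by 0.25 (5.88% lower, against 7.65% of all genes). Lgals3bp, a secreted glycoprotein often induced by interferon, was among the largest rises under the naming rule given below, with 419.8, 371 and 273 and 716, 493 and 559 (0.74 ± 0.12).

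Several of the largest rises among genes that met the naming rule given below were of genes with low counts. Kcnc4, a voltage-gated potassium channel, rose from 14.7, 26.6 and 31.7 to 60.4, 46.4 and 58.2 (1.2 ± 0.24), without overlap but at few reads, and did not pass with all 9 libraries. Prlr, the prolactin receptor, was better measured and rose from 296, 301 and 349 to 586, 677 and 653 (1.02 ± 0.07, adjusted p of 3.19e-09, limma). Pcdh17, a protocadherin, rose by 0.82 ± 0.10, Snx22, a sorting nexin, by 0.86 ± 0.20 and Slc5a10, a sodium-coupled sugar transporter, by 0.80 ± 0.15. The naming rule takes these largest changes only from genes without overlap, so the lack of overlap in these 5 was set in advance.

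Metalloproteinases that cleave the matrix rose as well. Mmp12, the macrophage elastase, rose from 292, 289 and 255 to 568, 583 and 497 (0.98 ± 0.07), and Mmp13, a collagenase, from 186, 197 and 213 to 340, 413 and 352 (0.88 ± 0.09). The stromelysins Mmp3 and Mmp10 rose by 0.63 ± 0.06 and 0.61 ± 0.08. The 4 genes had no overlap between groups, which the naming rule required of Mmp12, and passed with every alternative setting that was run. In the list of 16 tested proteases and inhibitors, which does not hold Mmp12, 4 rose (25.0%, against 6.18% of all genes) and 3 fell (18.8%, against 7.65%). Plat, the tissue plasminogen activator, rose by 0.13, which did not pass with DESeq2, all 9 libraries or 3 of the 6 fits without 1 library, and Serpine2, an inhibitor of thrombin and plasminogen activators, fell by 0.43 ± 0.04.

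Of 23 tested matrix genes 6 fell (26.1%, against 7.65% of all genes) and 2 rose (8.70%, against 6.18%). Fbln2, a fibulin of basement membranes, fell from 20728 ± 343 to 15039.6 ± 344 (SD, n = 3 each), a change of -0.46 ± 0.02, and Col6a1, a collagen VI chain, from 1219, 1289.9 and 1287 to 842, 909.9 and 917 (-0.51 ± 0.04). Col6a2, another chain of collagen VI, and Spp1, the matrix protein osteopontin, were low and changed by -0.87 and -0.61. The thrombospondins Thbs1 and Thbs2 rose by 0.12 and 0.27. Col6a2, Spp1 and Thbs2 did not pass with DESeq2 or in 4 of the 6 fits without 1 library. The number of lower matrix genes was 3 without vehicle replicate 3 and 4 with all 9 libraries, with no filter on low values or with a minimum of 50.

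Keratinocyte genes moved by small amounts in both directions. Krt5 and Krt14, the keratin pair of basal cells, parted from each other. Krt5 fell from 619781 ± 10239 to 554212 ± 8940.2 (SD, n = 3 each), a change of -0.16 ± 0.03, but was higher by 1.0 after quantile normalization, where it took the top rank that Rn45s held in the vehicle libraries. Krt14 had 444824 ± 3586 and 464919 ± 2809, and its difference of 0.06 ± 0.03 did not pass. Krt15, a keratin of the follicle bulge and basal layer, changed by -0.23 ± 0.04 and Dsg3, a desmosomal cadherin, by -0.13 ± 0.02. Itgb4, the hemidesmosome integrin, rose by 0.13 ± 0.02. In all 6 of 16 basal genes rose (37.5%, against 6.18% of all genes) and 4 fell (25%, against 7.65%). The rises numbered 3 without vehicle replicate 2 or vismodegib replicate 2 and 2 with all 9 libraries.

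Of 19 tested genes of differentiated keratinocytes 3 rose (15.8%, against 6.18% of all genes) and 3 fell (15.8%, against 7.65%). Sprr1a and Sprr1b, precursors of the cornified envelope, rose by 0.33 and 0.25, and Ovol1, a repressor that promotes differentiation, by 0.25. Cdsn, an adhesion protein of cornified cells, fell by 0.31, Sbsn, suprabasin, by 0.18 and Dsg1a, a desmosomal cadherin with close relatives, by 0.11. Among 12 tested genes of hair follicle progenitors 5 fell (41.7%, against 7.65% of all genes) and 2 rose (16.7%, against 6.18%). Nfatc1, a factor that keeps bulge stem cells quiescent, fell from 1007, 949 and 1004 to 734, 692 and 702 (-0.48 ± 0.05), and Nfib and Runx1, also follicle stem cell factors, changed by -0.30 ± 0.04 and -0.22 ± 0.02. Tbx1, a stem cell factor, and Lgr6, a receptor of follicle progenitors, rose by 0.48 and 0.34.

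In the Wnt list 6 of 17 tested members fell (35.3%, against 7.65% of all genes) and 1 rose (5.88%, against 6.18%). Wnt7b, an epidermal ligand, fell from 7377, 7265 and 7525 to 5291, 5527 and 5531 (-0.44 ± 0.02), and Lef1, a factor through which beta-catenin acts and which marks basal cell carcinoma, from 641, 639 and 668 to 472, 509.6 and 454 (-0.44 ± 0.06). Wnt4 and Wnt6, further ligands, changed by -0.14 ± 0.02 and -0.80 ± 0.18, and Znrf3, a feedback ligase that removes Wnt receptors, by -0.23 ± 0.03. Rnf43, its relative, rose by 0.18, which did not pass with DESeq2, all 9 libraries or 3 of the 6 fits without 1 library. Wnt7b, Lef1 and Znrf3 had no overlap between groups.

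BMP genes moved both ways, with 6 of 17 tested higher (35.3%, against 6.18% of all genes) and 4 lower (23.5%, against 7.65%). Id4, an inhibitor of differentiation factors, fell from 169, 154 and 147 to 85.0, 96.7 and 81.7 (-0.83 ± 0.12), while Id3, its relative and a direct BMP target, rose by 0.21 ± 0.03. Bmp2, a ligand, rose from 4098, 4146 and 4225 to 4897, 5199 and 4970.4 (0.27 ± 0.03), whereas Bmp4, another ligand, changed by -0.39 ± 0.09. Of the ligand traps, Fst fell by 0.31 ± 0.03 and Nog rose by 0.56 ± 0.15, a call lost with DESeq2 and in 3 of the 6 fits without 1 library.

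Proliferation genes showed few changes. Of 29 mitosis and spindle genes none passed with limma, where 6 had an unadjusted p under 0.05, 1 passed with edgeR and 0 with DESeq2, and the list's median was -0.04. Mki67, the proliferation marker, had 1952, 2122 and 2275 and 2505, 2108 and 1981, with overlap. Of 31 genes of DNA replication 2 rose and none fell, a share of 6.45% higher, near the 6.18% of all genes. They were Rrm2, a ribonucleotide reductase subunit, by 0.36 ± 0.03 and E2f2, a factor of S phase entry, by 0.23 ± 0.07. E2f2 lost its call in 4 of the 6 fits without 1 library. Trp53, which the mouse genotype in the labels targets, had RNA at 5289 ± 211 and 5337 ± 159 (SD, n = 3 each).

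Of 27 tested genes of glycolysis and hypoxia 13 rose (48.1%, against 6.18% of all genes) and 2 fell (7.41%, against 7.65%), with a median of 0.08. Slc2a1, the glucose importer, rose by 0.22 ± 0.03, P4ha2, a collagen prolyl hydroxylase, by 0.23 ± 0.03 and Ldha, lactate dehydrogenase, by 0.17 ± 0.03. Hk2, the hexokinase that starts glycolysis, went the other way, from 3779, 3763 and 3882 to 2898, 3059 and 3024 (-0.35 ± 0.03).

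Of 28 ribosome biogenesis genes 9 rose (32.1%, against 6.18% of all genes) and none fell, with a median of 0.08, at the same time as the share of Rn45s reads fell. Rrp12 and Heatr1, factors of ribosomal RNA processing and transcription, rose by 0.19 ± 0.04 and 0.13 ± 0.02. This count was 3 without vehicle replicate 2, 4 with DESeq2 and 26 with total-read scaling. Of 20 aminoacyl-tRNA synthetase genes, a list that does not hold Lars2, 7 rose (35%, against 6.18%), each by 0.12 or less, and none fell. The count of rises was 2 without vehicle replicate 2 or replicate 3 and 18 with total-read scaling. Slc7a11, the cystine importer of the integrated stress response, rose from 11929 ± 251 to 15877 ± 278 (SD, n = 3 each), a change of 0.41 ± 0.02. It was 1 of 5 rises (19.2%, against 6.18%) in 26 tested genes of that response, beside 1 fall (3.85%, against 7.65%). These rises numbered 2 without vehicle replicate 2 or replicate 3, 11 without vehicle replicate 1, 2 with DESeq2, 1 with all 9 libraries and 16 with total-read scaling. Of 24 tested cholesterol genes 5 rose (20.8%, against 6.18%) and none fell. The rises numbered 1 without vehicle replicate 3, 2 without vismodegib replicate 3, 3 without vehicle replicate 1, 2 with DESeq2, 1 with all 9 libraries and 17 with total-read scaling.

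None of 42 ribosomal protein genes and none of 39 oxidative phosphorylation genes passed with limma on the deposited scale, with edgeR or with DESeq2, and 5 and 8 of them had an unadjusted p under 0.05 by limma. With total-read scaling 38 and 34 of them were higher, so their level depended on the scaling. With the reads of Rn45s and Lars2 left out of the totals, 1 and 0 of them were higher and none was lower. Their medians on the deposited scale were 0.02 and 0.02, against 0.01 over all genes tested.

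The CCG-1423 libraries show how the same genes stood under the other agent. They were set against the vismodegib libraries directly, and of 12610 genes tested there 10610 passed (84.1%), so a difference between the agents was the rule. Gli1 had 409, 372 and 319 normalized counts with CCG-1423, below the vehicle libraries and above the vismodegib ones, and the difference of vismodegib minus CCG-1423 was -0.56 ± 0.10 (adjusted p of 0.00022, limma). Ptch1 had 494, 655 and 596 with CCG-1423, above both other groups, and differed from vismodegib by -1.05 ± 0.10. Ccnd1 and Ptgs2, which fell with vismodegib, stood at 4002 ± 266 and 8699.7 ± 849.8 with CCG-1423 (SD, n = 3 each), above all vehicle libraries, and differed by -1.73 ± 0.06 and -2.63 ± 0.06.

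Ucp2 was lowest with CCG-1423, at 212 ± 9.71, and differed by 4.98 ± 0.05. Prlr, raised by vismodegib, had 5.59, 3.46 and 9.27 with CCG-1423, and Pi15 had 83.8, 66.6 and 76.0. Krt5 and Krt14, which hardly moved with vismodegib, were higher by 2.5 ± 0.06 and 2.43 ± 0.05 in the vismodegib than in the CCG-1423 libraries. Ctgf and Actb were likewise higher with vismodegib, by 1.01 ± 0.11 and 1.26 ± 0.04. Gli2 (-0.05 ± 0.07), Isg15 (-0.04 ± 0.25) and Aldh3a1 (0.27 ± 0.16) were among the genes for which the difference between the agents did not pass.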

How the data were processed

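RNA was sequenced in pairs of 75-base reads, per the labels. The deposited table holds a signal per gene symbol, which is a read count normalized by the authors with 1 size factor per library. The values gave whole reads for 100% of entries within 0.01 read, and 24015 symbols are listed, 23849 of them known to RefSeq. The submitters' processing notes name TopHat, DESeq and mm9 but give no roles or versions. The sources used here do not give strandedness, counter or annotation.

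Genes with a value of at least 10 in at least 3 of the 6 libraries were tested with limma 3.58.1 in R 4.3.3 on log2(value + 1), with a trend in the empirical Bayes step. P-values were 2-sided, Benjamini-Hochberg adjusted over all tested genes, with a threshold of 0.05. A fold change on this scale understates the change of low genes. edgeR 4.0.16 and DESeq2 1.42.0 were run on the recovered reads as alternatives, beside other pseudocounts, filters, scalings and leaving out each library. The closing section gives their effect. Fits were tested on simulated data. A count of 0 allows up to 3 reads, 2.45 to 3.40 normalized counts here, for counting error only. Replicates of a group differed by more than counting noise (chi-square over its degrees of freedom between 1.84 and 4.62), so none was a repeat deposit.

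The comparison, the 57 gene lists and the genes were chosen with earlier results of these data known. Named genes are the 12 largest changes per direction among passing genes without overlap and with a mean of at least 50 in the higher group (Gm, Rik, Mir, Snor, n-R and LOC names left out), for each list at most the 4 members that passed with the smallest p, and 27 fixed genes. Outside this rule, and chosen after their values were seen, are Ucp2, Dpysl2, Chl1, Boc, Gas1, Rab34, Sfrp1, Irf7, Usp18, Oasl2, Xaf1, Irf9, Ifi35, Col6a2, Spp1, Wnt6, Rnf43, Nog, Bmp4, Tbx1, Lgr6, Csrp2, Nuak2, Gadd45b, Slco2a1, Mir6236, Ahr, Thbs2, Plat, Sprr1b and Dsg1a. Some genes that the rule names are not reported here.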

Additional observations from a re-analysis of the deposited data

How the results depend on the processing

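The number of genes changed, 1721 as reported, was 1079 with DESeq2, 703 with all 9 cell libraries in 1 fit, 89 against a minimum fold of 1.2 and 5417 with total-read scaling. Without 1 replicate it lay between 1096 and 1749, lowest without vehicle replicate 2. Higher genes numbered 348, 204, 11 and 4920 in these 4 settings in the same order and 413 to 803 without 1 replicate, and the lowest values came without vehicle replicate 2 (413), vismodegib replicate 2 (460) and vismodegib replicate 3 (510). Lower genes numbered 499 with all 9 libraries, 78 against a minimum fold of 1.2 and 497 with total-read scaling, and 683 to 946 without 1 replicate. Genes changed at least 1.5-fold numbered 72 with a minimum of 50, 76 with DESeq2, 73 with all 9 libraries and 53 against a minimum fold of 1.2, and 96 to 110 without 1 replicate. Genes changed at least 2-fold numbered 92 with no filter, 20 with a minimum of 50 and 26 against a minimum fold of 1.2, and 32 to 44 without 1 replicate. The share of calls that were higher was 44.7% as reported, 32.3% with DESeq2, 29.0% with all 9 libraries and 12.4% against the minimum fold. Fewer genes passing with a minimum fold or a stricter filter follows from its construction. Total-read scaling with the reads of Rn45s and Lars2 left out gave 1744 passing genes, 44.3% of them higher. What caused the shifts in the remaining settings was not tested.

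With the replicate number as a block (replicate block) 1575 genes passed, 1534 of them shared with the main count. Deviations of same-numbered libraries correlated at 0.0248, 0.0173 and -0.0150, so the numbers did not pair the samples.

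Of 163 named genes that were tested, 43 kept their direction and their side of the threshold in every setting, and 89 in every setting but the minimum fold of 1.2. In at least 1 of the 6 fits without 1 library 35 lost their calls, among them, beside those given above, Tap1 in 5 fits, Dsg1a and H2-K1 in 4, Bambi, Dnajb9 and Psmb10 in 3, Tgfbi in 2, and Gadd45b, Lgr6, Nlrc5 and Sprr1b in 1. Directions turned only at small values apart from Krt5, which was 1.0 after quantile normalization. Sufu turned to -0.0071 (edgeR), -0.0068 (DESeq2), -0.0041 (quantile normalization), and -0.00042 (total reads without Rn45s and Lars2). Without 1 replicate it ran from -0.0204 to 0.0135. With total-read scaling Srf turned to 0.0297, Mkl1 to 0.0370, Cyr61 to 0.0032 and Gas1 to 0.0078. Without 1 replicate Mki67 ran from -0.0476 to 0.121 and Trp53 from -0.0186 to 0.0379. At this depth, genes that did not reach 10 normalized counts in at least 3 of the 6 libraries, among them Hhip, Mycn and Acta2, were not tested.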

Other observations

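Further lists held changes that belong to none of the groups above. Of 13 tested genes of the epithelial-mesenchymal transition 3 fell (23.1%, against 7.65% of all genes) and none rose. Zeb2, a repressor of E-cadherin, went from 196, 189 and 163 to 105, 138 and 136 normalized counts (-0.53 ± 0.12 on the log2 scale), Snai2, a related repressor, changed by -0.16 ± 0.03 and Cdh2, N-cadherin, by -0.15 ± 0.03. Of 13 tested Notch genes 3 fell (23.1%, against 7.65%) and none rose. Among those that fell were Jag1, a ligand, by 0.18 and Lfng, a glycosyltransferase that tunes the receptors, by 0.17. In the TGF-beta list 3 of 17 tested members rose (17.6%, against 6.18%) and 1 fell (5.88%, against 7.65%). Ltbp1, which stores the latent ligand, rose by 0.23, Bambi, a decoy receptor, by 0.18 and Tgfbi, a secreted target, by 0.10, while Inhba, an activin subunit, fell by 0.37.

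Of 11 tested genes of lipid efflux 3 fell (27.3%, against 7.65% of all genes) and 1 rose (9.09%, against 6.18%). Pltp, the phospholipid transfer protein, went from 13044, 12599.8 and 12004 to 9063, 9838 and 9502 (-0.41 ± 0.03), and the sterol exporters Abca1 and Abcg1 changed by -0.29 ± 0.05 and -0.12 ± 0.03, while Mylip, a ligase that degrades the LDL receptor, rose by 0.14. Abcg1 did not pass with DESeq2 or in 4 of the 6 fits without 1 library. Of 22 chaperones of the endoplasmic reticulum 5 fell (22.7%, against 7.65%) and none rose. Dnajb9, Dnajc3, Canx and Hsp90b1, which fold or hold proteins there, fell by 0.20, 0.13, 0.13 and 0.10. With total-read scaling 11 members of the list were higher and 0 lower. With the reads of Rn45s and Lars2 left out of the totals, 0 were higher and 5 lower. Among 4 tested stress and simple keratins Krt17 fell from 114059 ± 2599 to 96908 ± 2223 (SD, n = 3 each), a change of -0.24 ± 0.02, whereas Krt6a and Krt6b, which accompany it in wounded skin and are near-identical to each other, rose by 0.11 ± 0.03 and 0.19 ± 0.03. Each change given here passed by limma at an adjusted p of at most 0.05 over all genes tested.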
